A study of Mus musculus with 44 samples.

Results

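The genes of the transforming growth factor beta (TGF-beta) system described here are its 3 ligands (Tgfb1, Tgfb2 and Tgfb3), its 3 receptors (Tgfbr1, Tgfbr2 and Tgfbr3) and the latent TGF-beta binding proteins (Ltbp1, Ltbp2, Ltbp3 and Ltbp4). They were chosen by their names as members of one system, with earlier results of these data known, and found by matching the Ensembl gene identifiers of the expression table to gene symbols. Of the 10 genes, 9 were measured among 43411 genes in the table, and Ltbp3 was not analysed here. Expression was measured by RNA sequencing of back skin from 44 wild-type (WT) female C57Bl/6 mice that were 8 weeks old at the start. Bleomycin, an antibiotic that breaks DNA and is used to induce skin fibrosis in mice, was injected under the back skin every day in 100 µL at 1 U/mL by the sample labels; one description in the study gives a lower concentration. The groups were saline (10 mice), 2 weeks of bleomycin (10 mice), 4 weeks of bleomycin (10 mice), and recovery for 6 weeks (6 mice) or 10 weeks (8 mice) after 4 weeks of bleomycin. How long saline was given, and whether its mice matched the recovery groups in age at harvest, are not given in the sources used here.

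TGF-beta is made as a latent complex: the ligand stays bound to its own propeptide, which most cells attach to a latent TGF-beta binding protein that anchors the complex in the extracellular matrix. Integrins, proteases and thrombospondin release the ligand, which binds TGFBR2; TGFBR2 then activates the kinase TGFBR1, and SMAD2 and SMAD3 carry the signal to the nucleus. TGFBR3, also called betaglycan, is a co-receptor that presents the ligand, TGFB2 above all. In skin the pathway is known for driving fibroblasts to make collagen, and it also takes part in the regression phase of the hair cycle.

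The deposited values are normalized counts, that is, reads per gene divided by a size factor for each mouse. Between 8509094 and 15285577 reads fell on genes in each library, and the lowest value of any of the 9 genes, 109 normalized counts of Tgfb2 in saline mouse 1, stood for 91 reads. Each group was compared with saline, and consecutive groups with each other, with limma on log2(normalized count + 1) over the 17037 genes with a mean above 3. A differentially expressed gene (DEG) had a Benjamini-Hochberg adjusted p below 0.05 over all of these genes and an absolute fold change above 1.5, a log2 change of 0.585. Log2 fold changes are given with their standard error (SE). Keratinocyte markers were high in every mouse, the 4 basal markers summing to at least 85835 normalized counts, and skeletal muscle markers to at least 69764, so the biopsies held muscle as well as skin. Saline mouse 1 and 2-week bleomycin mouse 2 had the lowest median correlations with the other mice of their group over all genes, 0.942 and 0.938. Next were 10-week recovery mouse 4 (0.947) and saline mouse 6 (0.949), which no fit left out. Calls among the genes described that changed without saline mouse 1 or 2-week mouse 2 are given with and without these mice.

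To compare genes with each other, normalized counts were divided by the summed exon length of each gene. In saline skin, Ltbp4 had the highest level per kilobase of exon, with 576 ± 159 normalized counts per kb (mean ± SD, n = 10), followed by Tgfbr2 with 416 ± 108 and Tgfbr3 with 203 ± 40.4. The ligand order was Tgfb3 with 107 ± 19.0, Tgfb1 with 81.5 ± 17.0 and Tgfb2 with 44.6 ± 11.5. Tgfbr1 stood at 76.8 ± 6.48, Ltbp1 at 75.9 ± 13.95 and Ltbp2 at 55.7 ± 20.7. Tgfb1, Tgfbr1 and Ltbp1 lay within the spread of each other, and the ranges of Ltbp4 and Tgfbr2 overlapped (404 to 849.9 against 179 to 580.5 per kb). In 2-week bleomycin skin the order at the top was turned, with 265 ± 63.1 per kb for Tgfbr2 and 234 ± 59.4 for Ltbp4, a difference within the spread. These are levels of RNA over one exon model per gene, so a change of isoform would move them.

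**Figure D1:**
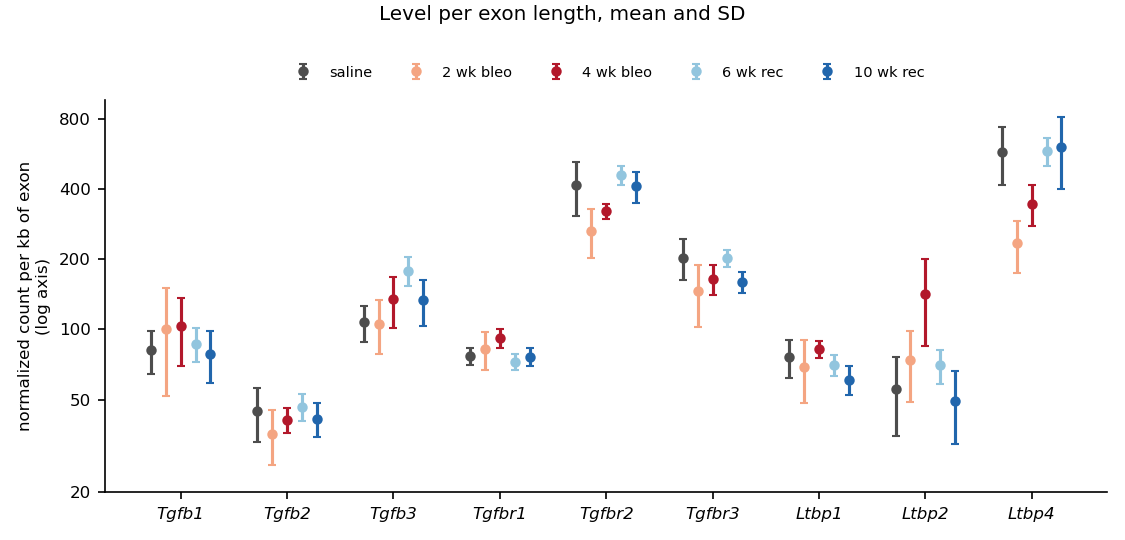
Level of each gene per kilobase of exon (normalized count per kb, log axis) in the 5 groups, as mean with SD over 10, 10, 10, 6 and 8 mice. In saline Ltbp4 was the gene with the highest level, 576 per kb, and it stood at 234 per kb after 2 weeks of bleomycin; Ltbp2 stood at 55.7 per kb in saline and 143 per kb after 4 weeks.

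Of the 9 genes, 2 were DEG after 2 weeks of bleomycin (Tgfbr2 and Ltbp4, both lower) and 2 after 4 weeks (Ltbp2 higher, Ltbp4 lower), where 16.7% and 17.9% of all genes tested were DEG. In the 6-week recovery group 1 of the 9 was a DEG (Tgfb3, higher), against 5.04% of all genes, and in the 10-week recovery group 0 of the 9 were, against 3.05%. By the adjusted p alone the numbers were 3, 4, 1 and 0, beside 35.6%, 36.6%, 9.08% and 5.83% of all genes. The median log2 fold change of the 9 genes was -0.17 and 0.14 after 2 and 4 weeks of bleomycin, and 0.10 and -0.06 in the recovery groups, with medians at most 0.0025 from 0 over all genes. At 10 weeks of recovery 3 of the 9 (Tgfb3, Tgfbr3 and Ltbp1) had an unadjusted limma p under 0.05, and edgeR and DESeq2 on the recovered reads also gave 0 DEG. Without 2-week mouse 2 the number at 2 weeks was 1, since Tgfbr2 then lay just under the fold threshold (log2 -0.58, adjusted p = 4.5e-04). Without saline mouse 1 it was 3, since Tgfbr3 then passed the threshold (-0.59, adjusted p = 8.9e-05).

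**Figure D2:**
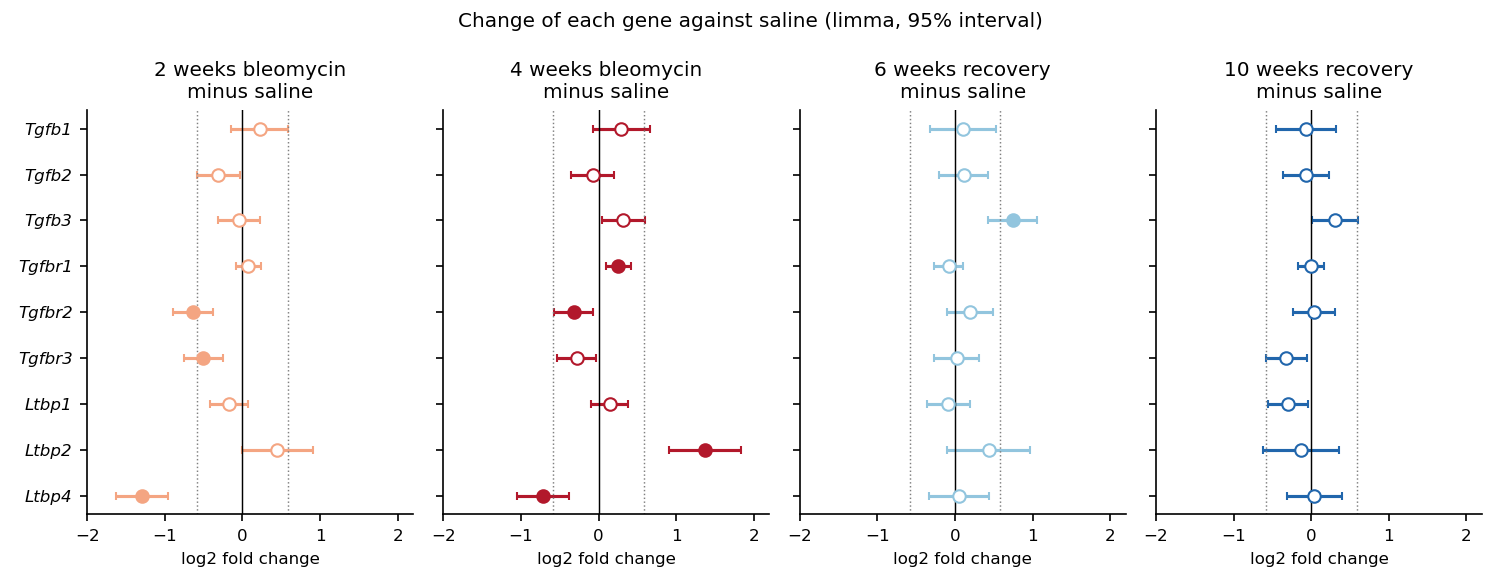
Log2 fold change of the 9 genes against saline with 95% intervals from limma, 1 panel per comparison. Filled points have an adjusted p below 0.05 and dotted lines mark a fold of 1.5; Ltbp4 at 2 weeks (-1.29) and Ltbp2 at 4 weeks (1.37) lie farthest from 0.

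The ligands were compared first. Tgfb1, the isoform made by most immune and stromal cells, ran from 278 to 525.7 normalized counts in saline with a median of 396. After 2 weeks of bleomycin it ran from 292 to 1146 with a median of 428, and after 4 weeks from 251.2 to 839.7 with a median of 547. The highest value, 1146, was 2-week mouse 2, and the next highest of that group was 657.5; the groups overlapped at both times. The log2 fold change of Tgfb1 was 0.22 at 2 weeks (adjusted p = 0.38, 95% interval -0.14 to 0.59) and 0.29 at 4 weeks (adjusted p = 0.23, -0.08 to 0.66). Both intervals reach from a small fall to past the DEG threshold. In recovery Tgfb1 ran from 369 to 531 at 6 weeks and from 248 to 525 at 10 weeks, within or close to the saline range. Macrophage markers, a cell type known to make Tgfb1, summed to between 7819 and 20997 normalized counts in saline and between 19032 and 35869 after 2 weeks of bleomycin, with all 5 genes of the list higher in mean; their part in the Tgfb1 values was not tested.

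Tgfb2, the isoform that depends most on the co-receptor TGFBR3, had the lowest level per kb of the 9 genes in saline. It ran from 109 to 352 normalized counts in saline (median 258), from 131 to 312 at 2 weeks (median 194), from 175 to 270.0 at 4 weeks (median 242), from 221 to 315 at 6 weeks of recovery (median 268) and from 194 to 299 at 10 weeks (median 249). The lowest saline value belonged to mouse 1, the other 9 lying at 214 or above. The groups overlapped at every time. At 2 weeks the log2 fold change of Tgfb2 was -0.31 ± 0.14 (SE), which missed the threshold (adjusted p = 0.085) with 8 of 10 mice below the saline median. Tgfb2 passed at 2 weeks in 4 of 13 alternative fits, among them DESeq2 (-0.33, adjusted p = 0.048) and the fits without saline mouse 1, alone (-0.44, adjusted p = 0.0027) or with 2-week mouse 2 (-0.37, adjusted p = 0.0073).

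Tgfb3, an isoform known for its part in tissue repair and palate formation, was the ligand with a change that passed the test. It ran from 247 to 419.8 normalized counts in saline with a median of 395, from 203 to 484 at 2 weeks with a median of 339, and from 300.2 to 698 at 4 weeks with a median of 438. At 4 weeks the log2 fold change was 0.32 ± 0.14, which missed the threshold (adjusted p = 0.072) but passed it in 4 of 13 alternative fits: edgeR (0.35, adjusted p = 0.044), DESeq2 (0.33, 0.047), without 2-week mouse 2 (0.32, 0.048) and with a correction for GC content (0.32, 0.038). After 6 weeks of recovery all 6 mice, at 494 to 702 with a median of 608, lay above all 10 saline mice. The mean was 605 ± 84.1 (SD, n = 6) against 363 ± 64.3 (n = 10) in saline, a log2 fold change of 0.75 ± 0.16 (SE, 1.68-fold, adjusted p = 0.0022). Over all genes tested, 1.41% were higher than saline without overlap at that time. Directly against 4 weeks of bleomycin, Tgfb3 was 0.43 ± 0.16 higher on the log2 scale at 6 weeks of recovery (adjusted p = 0.045), with an overlap, and this missed the threshold with edgeR (0.39, adjusted p = 0.061). At 10 weeks of recovery it ran from 321 to 623 with a median of 441, and 5 of 8 mice lay above the saline range (log2 0.31 ± 0.15, adjusted p = 0.25). Between 10 and 6 weeks of recovery the difference of -0.44 did not pass the test (adjusted p = 0.32).

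The balance of the ligands is described without a test. The share of Tgfb3 in the summed level per kb of the 3 ligands was 46.1% ± 3.95 (SD) in saline, 44.5% ± 9.79 and 48.5% ± 5.56 after 2 and 4 weeks of bleomycin, with 57.2% ± 4.17 in the 6-week and 52.7% ± 7.67 in the 10-week recovery group. The ranges of 6 weeks of recovery (49.7 to 61.8%) and saline (41.1 to 55.5%) overlapped. The share of Tgfb1 reached 73.3% in 2-week mouse 2, and 44.1% at most in saline.

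**Figure D3:**
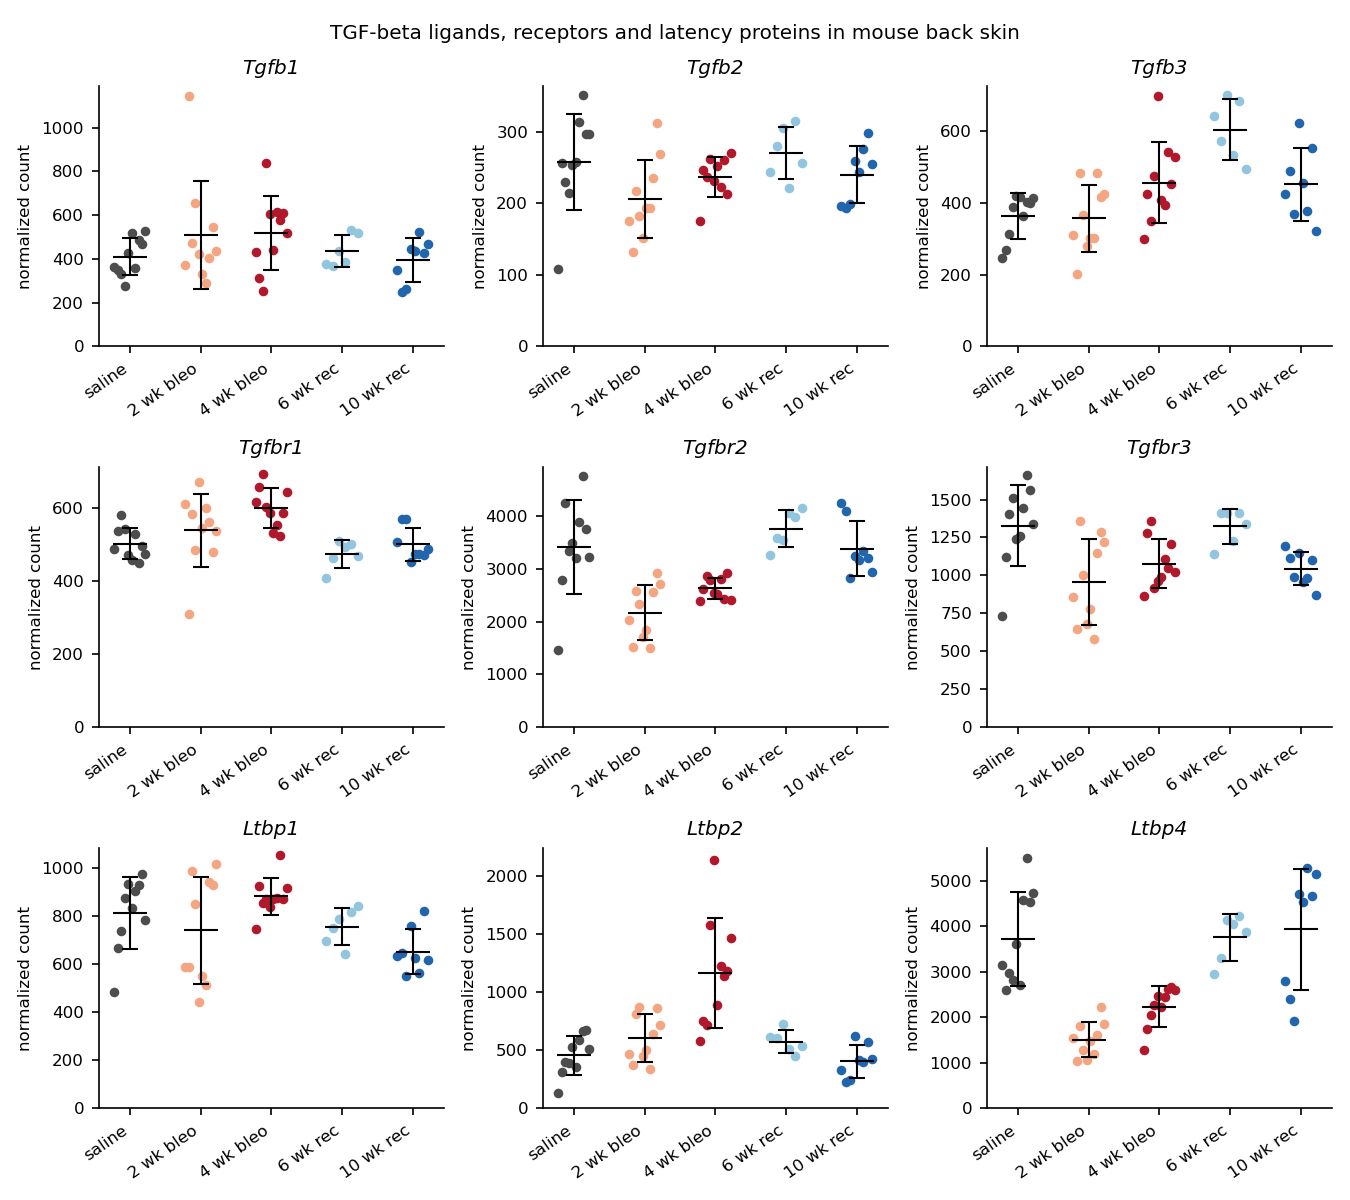
Normalized count of each of the 9 genes in every mouse, by group, with mean and SD; each panel has its own axis from 0. Tgfb3 at 6 weeks of recovery (494 to 702) lies above all saline mice, Ltbp4 at 2 weeks (1037 to 2233) lies below them, and Ltbp2 at 4 weeks reaches 2139.

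Of the 3 receptors, Tgfbr2 and Tgfbr3 had lower means after bleomycin than in saline, and Tgfbr1 had higher ones. Tgfbr2, the receptor that binds the ligand first, ran from 1462 to 4753 normalized counts in saline with a median of 3406, the lowest value again in mouse 1 and the next at 2781. After 2 weeks of bleomycin it ran from 1502 to 2916 with a median of 2177, all 10 mice below the saline median. After 4 weeks it ran from 2387 to 2911 with a median of 2573, again with all 10 mice below the saline median. Tgfbr2 fell at 2 weeks by 0.63 on the log2 scale (SE 0.13, 0.645 of saline, adjusted p = 1.4e-04). At 4 weeks the log2 fold change was -0.32 (adjusted p = 0.048), which lay above 0.05 in some alternative fits, and was -0.45 (adjusted p = 5.9e-04) without saline mouse 1. In the 6-week recovery group Tgfbr2 ran from 3259.9 to 4136 with a median of 3773, above all 10 mice given bleomycin for 4 weeks. This was a rise below the fold threshold (log2 0.52 ± 0.15, adjusted p = 0.0095), and 4.44% of all genes tested were higher without overlap in that comparison. Against saline Tgfbr2 did not pass the test at 6 weeks of recovery (0.19, adjusted p = 0.46) or at 10 weeks (0.03, adjusted p = 0.95, range 2827 to 4246).

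The promoter window of Tgfbr2 is shown because it is the receptor gene whose RNA changed most. It comes from RefSeq for the build GRCm38.p6 and holds 250 bases before and 50 after the transcript start, 5′ to 3′ on the strand of the gene. Capitals mark matches, on either strand, to the SMAD box (CAGAC), the AP-1 site (TGACTCA) and the GC box (GGGCGG), and no match of one motif overlaps one of another in the windows printed here. Positions give the first base of a match on the strand of the gene, with 1 at the transcript start and -1 before it. Tgfbr2 (chr9:116175314-116175613, minus strand) holds 1 SMAD box, at -160:
Tgfbr2: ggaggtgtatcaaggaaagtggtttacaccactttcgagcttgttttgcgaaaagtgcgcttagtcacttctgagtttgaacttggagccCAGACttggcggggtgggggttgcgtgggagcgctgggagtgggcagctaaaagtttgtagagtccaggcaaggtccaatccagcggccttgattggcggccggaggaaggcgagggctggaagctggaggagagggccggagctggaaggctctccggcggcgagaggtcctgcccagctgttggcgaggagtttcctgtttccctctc
Of 32851 RefSeq promoter windows of 300 bases, 49.6% hold at least 1 SMAD box, 5.20% an AP-1 site and 35.7% a GC box, so the match in Tgfbr2 is a common one. A match is a description of letters and not a bound site.

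Tgfbr1, the kinase that TGFBR2 activates, had its highest mean after 4 weeks of bleomycin. It ran from 448 to 579 in saline with a median of 492, from 309.5 to 671 at 2 weeks with a median of 553, and from 522 to 692 at 4 weeks with a median of 594. The value of 309.5 belonged to 2-week mouse 2, the other 9 lying at 479 or above. At 4 weeks all 10 mice lay above the saline median and Tgfbr1 rose by 0.25 ± 0.08 on the log2 scale (adjusted p = 0.013), under the fold threshold. At 2 weeks the change was 0.08 (adjusted p = 0.49), and 0.16 (adjusted p = 0.034) without 2-week mouse 2. In the 6-week recovery group, at 408 to 509.8, all 6 mice lay below all 4-week bleomycin mice (log2 -0.34 ± 0.09, adjusted p = 0.0068), as did 5.77% of all genes tested. With a correction for GC content this change was smaller (-0.15, adjusted p = 0.030). Against saline Tgfbr1 did not differ by the test at 6 weeks (-0.08, adjusted p = 0.64) or 10 weeks of recovery (-0.01, adjusted p = 0.99).

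Tgfbr3, the co-receptor, ran from 733 to 1659.8 in saline with a median of 1371, and the lowest value was again saline mouse 1. It ran from 579 to 1358 at 2 weeks (median 929) and from 868 to 1362 at 4 weeks (median 1038), with all 10 mice of both groups below the saline median. Tgfbr3 fell at 2 weeks by 0.50 ± 0.13 on the log2 scale (adjusted p = 0.0017), under the fold threshold, and at 4 weeks the change was -0.28 (adjusted p = 0.078). After 6 weeks of recovery it ran from 1139.9 to 1413 (median 1375, log2 0.02 against saline, adjusted p = 0.95). At 10 weeks of recovery it ran from 872 to 1191 with all 8 mice below the saline median (-0.32, adjusted p = 0.16). Without saline mouse 1 the changes at 4 weeks (-0.38, adjusted p = 0.011) and at 10 weeks of recovery (-0.41, adjusted p = 0.037) passed the test.

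The ratio of Tgfbr2 to Tgfbr1 per kb is a description without a test. Its median was 5.71 in saline, 3.59 and 3.57 after 2 and 4 weeks of bleomycin, and 6.35 and 5.52 after 6 and 10 weeks of recovery. In saline it ran from 2.39 in mouse 1 to 8.46, so the bleomycin ranges of 2.00 to 4.85 and 2.99 to 4.03 overlapped with saline.

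The latent TGF-beta binding proteins held both the largest fall and the largest rise among the 9 genes. Ltbp4, which binds latent TGF-beta and is needed for elastic fibre assembly, ran from 2608 to 5493 normalized counts in saline with a median of 3377. After 2 weeks of bleomycin it ran from 1037 to 2233 with a median of 1509.8, so all 10 mice lay below all 10 saline mice. After 4 weeks it ran from 1275 to 2674 with a median of 2355, and 8 of 10 mice lay below all saline mice. Ltbp4 fell by 1.29 ± 0.17 (SE) on the log2 scale at 2 weeks (0.408 of saline, adjusted p = 4.1e-08) and by 0.72 ± 0.17 at 4 weeks (0.608 of saline, adjusted p = 7.0e-04). Over all genes tested, 1.33% were lower than saline without overlap at 2 weeks. Between 2 and 4 weeks Ltbp4 rose by 0.58 ± 0.17 (adjusted p = 0.034), just under the fold threshold, and this did not pass the test without 2-week mouse 2 (0.52, adjusted p = 0.068). In bulk tissue, fewer cells of a type and less RNA per cell cannot be told apart.

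After 6 weeks of recovery Ltbp4 ran from 2958.5 to 4223 with a median of 3963, above all 10 mice given bleomycin for 4 weeks. The rise from 4 weeks of bleomycin was 0.77 ± 0.19 on the log2 scale (1.70-fold, adjusted p = 0.0028), and 4.44% of all genes tested were higher without overlap in that comparison. Against saline the difference was 0.05 (adjusted p = 0.91, 95% interval -0.33 to 0.43). At 10 weeks of recovery Ltbp4 ran from 1929.7 to 5276 with a median of 4597 (0.04 against saline, adjusted p = 0.95). The spread was wide at that time: mice 1, 2 and 3 stood at 2794.5, 2397 and 1929.7, and the other 5 between 4521 and 5276.

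Ltbp2, a family member that binds fibrillin and elastic fibres and is known not to bind latent TGF-beta itself, moved the other way. It ran from 136 to 676 in saline with a median of 454, the lowest being mouse 1 and the next 314. At 2 weeks it ran from 338 to 876 with a median of 572 (log2 0.45 ± 0.23, adjusted p = 0.13). At 4 weeks it ran from 581 to 2139 with a median of 1159.6, and 9 of 10 mice lay above all saline mice. The mean was 1166 ± 471 (SD, n = 10) against 456 ± 169 in saline, a rise of 1.37 ± 0.23 on the log2 scale (2.58-fold, adjusted p = 7.6e-06), or 1.19 (adjusted p = 1.5e-05) without saline mouse 1. Ltbp2 was also a DEG between 4 and 2 weeks (0.92 ± 0.23, adjusted p = 0.014), the only one of the 9 genes in that comparison, where 2.35% of all genes were. By the adjusted p alone, 2 of the 9 (Ltbp2 and Ltbp4) and 5.61% of all genes passed. In the 6-week recovery group it ran from 448 to 728 with a median of 569, lower than at 4 weeks of bleomycin by the test (log2 -0.94 ± 0.27, adjusted p = 0.0083). Against saline it did not pass the test at 6 weeks (0.43, adjusted p = 0.33) or 10 weeks of recovery (-0.13, adjusted p = 0.85, range 229 to 622). The exons of Ltbp2 overlap 764 bases of D030025P21Rik on the opposite strand, and since the strand setting of the counting is not given in the sources used here, reads of that RNA cannot be told apart.

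Ltbp1, the main carrier of latent TGF-beta in many tissues, showed no change that passed the test in the 7 comparisons as fitted over all mice. It ran from 485 to 972 in saline (median 854), from 441 to 1016 at 2 weeks (median 719), from 743 to 1051 at 4 weeks (median 871), from 639 to 842 at 6 weeks of recovery (median 767) and from 550.4 to 821 at 10 weeks (median 629). The log2 fold changes were -0.17 (adjusted p = 0.30), 0.14 (0.40), -0.09 (0.77) and -0.30 (0.18) against saline in that order. At 10 weeks of recovery all 8 mice lay below the saline median, with a 95% interval of -0.56 to -0.04, and without saline mouse 1 and 2-week mouse 2 the change passed (-0.38, adjusted p = 0.043). Between 6 weeks of recovery and the end of bleomycin the change of Ltbp1 was -0.23 (adjusted p = 0.26), and it passed in a fit of those groups alone (adjusted p = 0.017).

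The share of each gene in the summed level per kb of Ltbp1, Ltbp2 and Ltbp4 shows how far the mixture moved, as a description of values that the tests above already used. Ltbp4 held 77.1 to 88.7% in saline, 51.7 to 68.1% at 2 weeks and 53.0 to 65.4% at 4 weeks, so neither bleomycin group overlapped with saline. It held 76.6 to 83.7% at 6 weeks of recovery and 78.7 to 89.0% at 10 weeks, within or next to the saline range. The 3 mice with low Ltbp4 counts at 10 weeks of recovery were inside that range, mouse 3 having the lowest share, 78.7%. Ltbp2 held 3.03 to 9.44% in saline, 15.1 to 27.8% and 18.1 to 36.1% after 2 and 4 weeks of bleomycin, and 6.98 to 12.6% and 5.30 to 8.67% after 6 and 10 weeks of recovery.

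Promoter windows of Ltbp4 and Ltbp2 are shown because these genes changed most and in opposite directions at 4 weeks. They are RefSeq windows of the same build and length as that of Tgfbr2, with the same motifs in capitals. The Ltbp4 window belongs to the most upstream of its 3 listed starts (chr7:27337563-27337862, minus strand), and the Ltbp2 window is the only one listed (chr12:84876442-84876741, minus strand).
Ltbp4: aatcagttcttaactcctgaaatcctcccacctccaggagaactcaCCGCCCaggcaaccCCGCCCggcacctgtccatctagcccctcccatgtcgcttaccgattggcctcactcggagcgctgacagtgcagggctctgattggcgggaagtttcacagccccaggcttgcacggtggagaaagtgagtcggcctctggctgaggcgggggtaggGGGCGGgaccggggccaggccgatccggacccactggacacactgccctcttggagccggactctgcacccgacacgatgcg
Ltbp2: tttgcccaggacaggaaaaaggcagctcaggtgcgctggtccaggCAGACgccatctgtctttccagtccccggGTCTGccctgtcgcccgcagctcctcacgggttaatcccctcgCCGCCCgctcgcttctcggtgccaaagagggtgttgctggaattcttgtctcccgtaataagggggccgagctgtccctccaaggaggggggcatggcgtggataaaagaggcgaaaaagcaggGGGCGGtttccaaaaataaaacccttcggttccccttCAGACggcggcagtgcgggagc
The Ltbp4 window holds 3 GC boxes, at -204, -190 and -32, and no SMAD box, while the Ltbp2 window holds 3 SMAD boxes, at -205, -176 and 29, and 2 GC boxes, at -133 and -9. The other Ltbp4 windows, which share most of their bases with each other, hold 7 and 9 GC boxes and no SMAD box, at 80.3% and 81.3% GC. Whether any of these matches bears on the changes of Ltbp4 and Ltbp2 was not tested. In all, 7 of the 9 measured genes had a window in RefSeq, 11 windows together, and an AP-1 site was in none of them. SMAD boxes were also in windows of Tgfb2 (2), Tgfbr1 (1 of its windows) and Ltbp1 (1 and 2), and the Tgfb1 window held 6 GC boxes.

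The 6-week recovery group was then set against the end of bleomycin treatment. By the adjusted p, 5 of the 9 genes differed, as did 25.0% of all genes. Ltbp4 and Ltbp2 were DEG, against 11.9% of all genes, and Tgfb3, Tgfbr1 and Tgfbr2 stayed under the fold threshold. With the GC correction Tgfbr2 passed it (0.62, adjusted p = 4.0e-04). These comparisons share the 4-week mice with those against saline. Between 10 and 6 weeks of recovery 0 of the 9 genes were DEG or passed the adjusted p, with 0 DEG by edgeR and DESeq2 as well; Tgfb3 and Tgfbr3 had an unadjusted p under 0.05. Of all genes, 0.088% were DEG and 0.0939% passed the adjusted p.

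Markers of other cell types moved with the groups. Markers of the growing hair follicle (keratins of the inner root sheath and hair shaft, 7 of 9 listed genes measured, all detected in every group) summed to 2055 to 220042 normalized counts in saline and 38.2 to 1927 at 2 weeks. They summed to 34.2 to 4866 at 4 weeks, and to 106 to 101477 and 1347 to 165407 in the recovery groups. The 2 saline mice with the lowest sums, mice 2 and 6 with 2055 and 4060, had 2608 and 2709 normalized counts of Ltbp4, above all 2-week bleomycin mice and at the bottom of the saline range. At 4 weeks of bleomycin Ltbp4 reached 2629 in mouse 8 and 2674 in mouse 9, above saline mouse 2 and below saline mouse 6. Mouse 5 of 6 weeks of recovery had a sum of 106, in the range of the bleomycin mice, and 4223 counts of Ltbp4, 3968 of Tgfbr2 and 448 of Ltbp2. Among the 2-week mice the highest sum, 1927 in mouse 8, went with 1619.9 counts of Ltbp4 and 2562 of Tgfbr2, inside the range of that group. Saline mice 2 and 6 had 2781 and 3203 counts of Tgfbr2 and 314 and 354 of Ltbp2. Saline mouse 1, with the highest sum (220042), had 3139 counts of Ltbp4, 1462 of Tgfbr2 and 136 of Ltbp2, the last 2 being the lowest in saline. These are values of single mice, and the part of hair growth in the group differences was not tested.

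**Figure D4:**
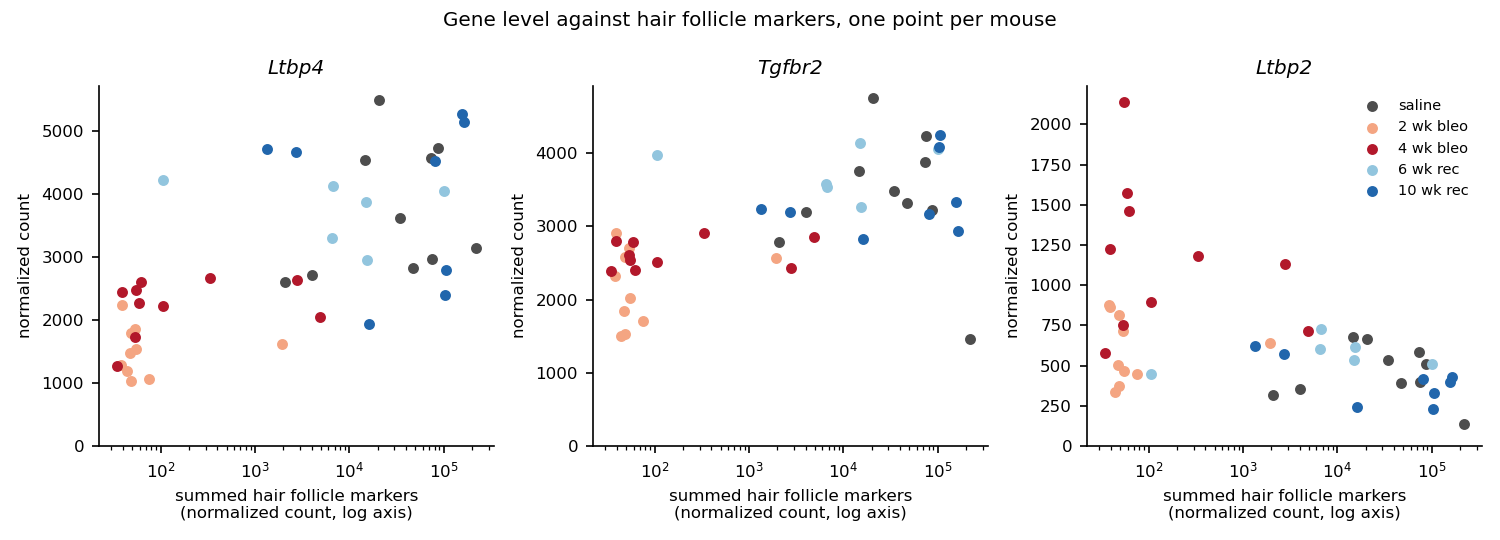
Normalized count of Ltbp4, Tgfbr2 and Ltbp2 in each mouse (linear axis from 0) against the summed normalized count of 7 growing hair follicle markers (log axis). The 2 saline mice with the lowest sums (2055 and 4060) have Ltbp4 at 2608 and 2709, above the 2-week mice (1037 to 2233), while the 4-week mice reach 2674. In 1 mouse of 6 weeks of recovery a sum of 106 goes with Ltbp4 at 4223. Saline mouse 1 has the highest sum, 220042, with Tgfbr2 at 1462 and Ltbp2 at 136.

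The fibroblast list (5 genes, with Col1a1 and Col1a2 among them) summed to 55718 to 140764 in saline and 25910 to 97239 at 2 weeks, with 1 of 5 genes higher in mean than in saline. It summed to 43609 to 149919 at 4 weeks, and to 81887 to 144208 and 37301 to 73638 in the recovery groups. In these groups 3, 3 and 0 of 5 genes were higher in mean than in saline. Col1a1 and Col1a2 made up most of the summed counts, and both are also counted among the TGF-beta targets below. Pdgfra ran from 856 to 1481 in saline, and from 324 to 836, 547 to 795, 516 to 690 and 594 to 831 in the other groups in time order. Dpt ran from 2690 to 6060 in saline and 1465 to 1989 at 4 weeks, where Lum ran from 4867 to 7179 against 2791 to 6298. Macrophage markers summed to 17681 to 32870 at 4 weeks, and all 5 were higher in mean than in saline. All 4 endothelial markers were higher in mean than in saline in each of the other groups, with a median sum of 1739 in saline and of 2677, 2994, 2849.9 and 2357 in those groups in time order. Mast cell markers had a median sum of 2399 in saline, 4385 at 2 weeks and 5687 at 4 weeks. Of these 4 genes, 3 were higher in mean at 2 weeks and 4 at 4 weeks. Smooth muscle and pericyte markers had a median sum of 6675 in saline and 8448 at 4 weeks, with all 4 higher in mean. Melanocyte markers ran from 247 to 10029 in saline, and 0 of 4 were higher in mean in any other group. T cell markers had a median sum of 315 in saline, 457 at 2 weeks and 402 at 4 weeks. The adipocyte list fell in median from 11583 in saline to 7600 at 4 weeks, with 0 of 5 genes higher in mean, and stood at 15595 at 10 weeks of recovery. The part of these cell types in the changes of Ltbp4, Tgfbr2, Tgfb3 and Ltbp2 was not tested.

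Among 56 other genes of the pathway, all tested, 14 were DEG after 2 weeks of bleomycin (5 higher, 9 lower) and 13 after 4 weeks (8 higher, 5 lower). The recovery groups had 9 DEG after 6 weeks and 4 after 10, all higher than saline. Over all genes tested the higher and lower DEG were 9.3% and 7.43% at 2 weeks and 10.5% and 7.37% at 4 weeks. They were 3.33% and 1.71% in the 6-week recovery group and 2.05% and 0.998% in the 10-week group. The number at 10 weeks of recovery was 8 without 2-week mouse 2, which enters there only through the shared spread. Against the 4-week bleomycin group, 9 were DEG after 6 weeks of recovery, 6 higher and 3 lower, where 4.8% and 7.14% of all genes were.

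**Figure D5:**
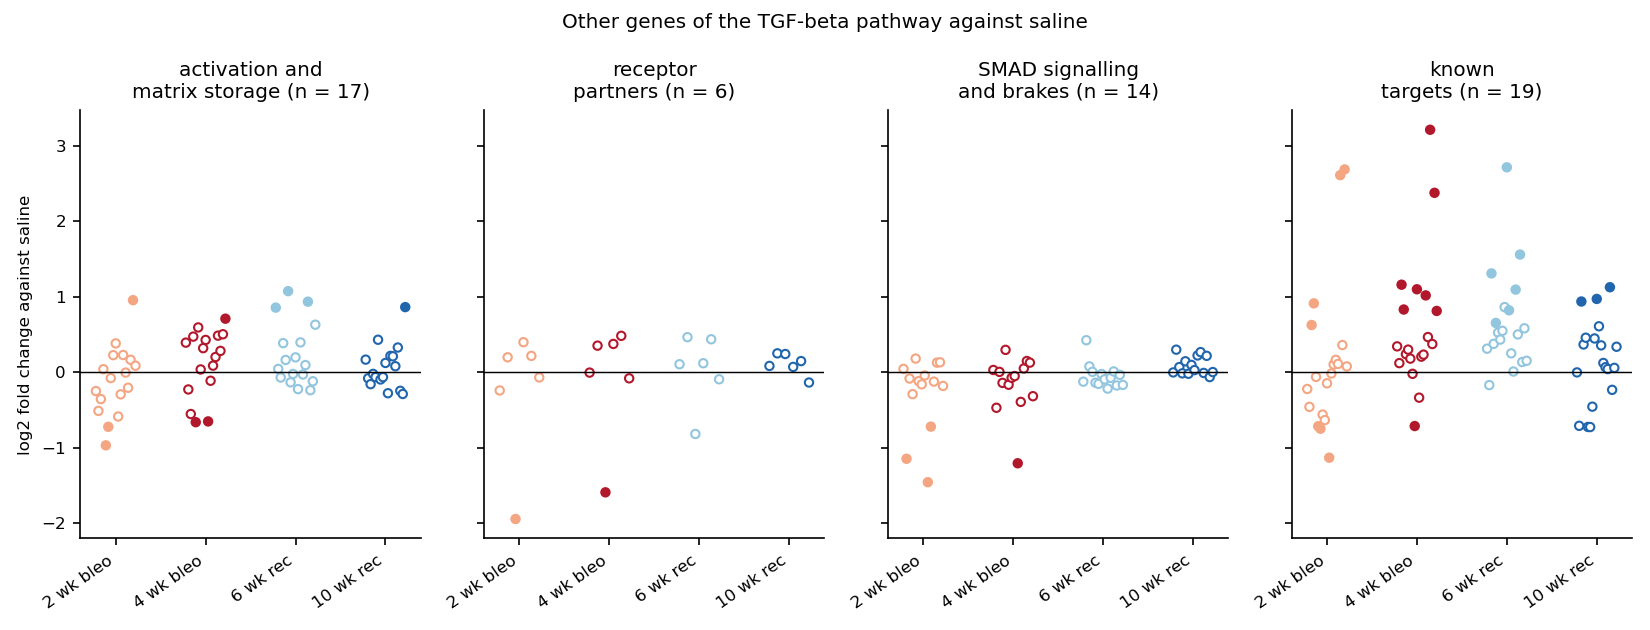
Log2 fold change against saline of 56 other pathway genes in 4 lists, 1 point per gene, for the 4 groups compared with saline. Filled points are DEG; Bambi at 2 weeks (-1.94) is the lowest point, and Cthrc1 stands at 2.72 after 6 weeks of recovery.

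Genes that activate or store latent TGF-beta (17 measured) moved in both directions. At 4 weeks of bleomycin 1 was a higher DEG and 2 were lower, where 10.5% and 7.37% of all genes were. The list median was 0.28. Thbs1, which encodes thrombospondin 1, an activator of latent TGF-beta, was 0.71 ± 0.24 higher (adjusted p = 0.016), a call made by neither edgeR (0.55, adjusted p = 0.087) nor DESeq2 (0.53, adjusted p = 0.080). Fbn1, the fibrillin that LTBPs attach to, fell by 0.66 ± 0.19 at 4 weeks (adjusted p = 0.0061), running from 1646 to 3064 against 1866 to 5784 in saline. Itgb3, a subunit of an integrin that binds latent TGF-beta, fell by 0.65 ± 0.12 (adjusted p = 1.8e-05). After 6 weeks of recovery the 3 DEG were the gelatinase gene Mmp2 (0.94 ± 0.17, adjusted p = 2.5e-04) and 2 small proteoglycans that can bind TGF-beta, Bgn (0.86 ± 0.25, adjusted p = 0.024) and Fmod (1.08 ± 0.32, adjusted p = 0.028), each without overlap with saline. Of all genes tested, 3.33% were higher DEG there and 1.41% were higher without overlap. Fmod was also a lower DEG at 2 weeks of bleomycin (-0.72 ± 0.28, adjusted p = 0.039), a call lost in 5 of 13 alternative fits, among them that without 2-week mouse 2 (-0.60, adjusted p = 0.085). Without saline mouse 1, Fmod at 6 weeks of recovery was at 0.91 (adjusted p = 0.060). At 10 weeks of recovery the DEG was Thbs1 (0.86 ± 0.25, adjusted p = 0.032; 0.82, adjusted p = 0.057 with edgeR).

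The DEG among the receptor partners and SMAD proteins during bleomycin were all lower than saline. Of all genes tested, 7.43% were lower DEG at 2 weeks and 7.37% at 4 weeks. Of 6 receptor partners the DEG was Bambi, a decoy receptor without a kinase that TGF-beta itself can induce. Its values ran from 44.5 to 1091 in saline, 34.6 to 69.3 at 2 weeks and 42.1 to 98.7 at 4 weeks, with log2 fold changes of -1.94 ± 0.38 (adjusted p = 6.7e-05) and -1.59 ± 0.38 (adjusted p = 8.5e-04). Of 14 genes of SMAD signalling 3 were DEG at 2 weeks and 1 at 4 weeks, all lower. Smad6, an inhibitory SMAD, fell by 1.45 ± 0.22 at 2 weeks and by 1.20 ± 0.22 at 4 weeks (adjusted p = 9.8e-07 and 2.7e-05). At 6 weeks of recovery all 6 mice (80.9 to 137) lay above all 4-week mice (34.2 to 56.2), as did 4.44% of all genes tested. The other DEG at 2 weeks, named after their values were seen, were Pmepa1 and Smad7, both known as feedback inhibitors that TGF-beta induces (-1.14 ± 0.16 and -0.72 ± 0.17, adjusted p = 1.1e-07 and 9.4e-04). The DEG call of Smad7 held in 11 of 13 alternative fits (-0.77 to -0.52). Pmepa1 ran from 182 to 332 at 2 weeks, below all saline mice at 419 to 1109, where 1.33% of all genes tested were lower without overlap.

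Genes known as TGF-beta targets (19 measured) held the largest changes of the pathway. At 2 weeks 4 were higher DEG and 3 were lower, where 9.3% and 7.43% of all genes were, with a list median of -0.015. The lower ones were Fn1 and the collagen genes Col1a1 and Col1a2, the latter named after their values were seen (-0.71 ± 0.24 and -0.75 ± 0.23, adjusted p = 0.015 and 0.0092). The DEG call of Col1a1 held in 11 of 13 alternative fits (-0.73 to -0.53). At 4 weeks 7 were higher DEG and 1 was lower, where 10.5% and 7.37% of all genes were, with a list median of 0.34. Timp1, an inhibitor of matrix proteases, rose by 2.69 ± 0.23 at 2 weeks and 2.38 ± 0.23 at 4 weeks (adjusted p = 3.8e-13 and 1.4e-11). Ccn2, a matricellular protein gene, was a higher DEG in each of the 4 groups, by 0.63, 1.16, 1.31 and 0.94 (adjusted p = 4.0e-04, 7.0e-09, 2.8e-07 and 8.2e-05). Tnc was a higher DEG at 4 weeks (0.81 ± 0.26, adjusted p = 0.013) and Comp the lower one (-0.71 ± 0.26, adjusted p = 0.027).

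In recovery, 6 of the 19 targets were higher DEG at 6 weeks and 3 at 10, where 3.33% and 2.05% of all genes were. The list medians were 0.53 and 0.12. Cthrc1, a secreted protein of matrix-making fibroblasts, had the largest change at 6 weeks of recovery, with 250 to 401 normalized counts against 21.9 to 83.5 in saline (2.72 ± 0.30, adjusted p = 2.1e-08). It was 1.74 ± 0.31 lower at 10 than at 6 weeks of recovery on the log2 scale (adjusted p = 0.0047). Lox, which crosslinks collagen and elastin, was higher at 4 weeks of bleomycin (1.02 ± 0.13, adjusted p = 4.6e-08) and at 6 weeks of recovery (1.10 ± 0.15, adjusted p = 4.7e-06). No mouse lay inside the saline range at 6 weeks of recovery, where 1.41% of all genes tested were higher without overlap. Fn1, fibronectin, was higher at 6 weeks of recovery (0.82 ± 0.22, adjusted p = 0.015), after a fall of 1.13 ± 0.19 at 2 weeks of bleomycin (adjusted p = 8.2e-06). Cdkn2b, a cell cycle inhibitor that TGF-beta induces, was higher at 6 weeks of recovery (0.65 ± 0.12, adjusted p = 1.9e-04). The targets respond to other signals as well, so these values give the level of the genes and not the activity of the pathway.

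Genes whose levels varied most like each member were found from Pearson correlations over the 44 mice after group means were taken off. These r describe mice that share depth, tissue sampling and base composition effects, and carry no test. Tgfbr2 and Tgfbr3 were alike (0.86), and the gene most like Tgfbr2 was Antxr2 (0.89). The genes most like Tgfbr3 were Reck (0.88) and Sparcl1 (0.87). Ltbp2 was most like the pericyte and fibroblast receptor Pdgfrb (0.90) and Flii (0.89), Ltbp1 like Serping1 (0.88) and Cnn1 (0.87), and Ltbp4 like Bag6 (0.88) and Mtss1l (0.87). Tgfb1 was most like Csk (0.94) and Glmp (0.93), Tgfb2 like Tnxb (0.85) and Podn (0.82), Tgfb3 like Cdh2 (0.82) and Fmod (0.82), and Tgfbr1 like Ipo7 (0.91) and Gabpa (0.90). Tgfb1 and Tgfbr1 ran against each other (-0.72). Both followed the slope of expression on transcript GC content of each mouse, with r of 0.76 and -0.75, as did Ltbp4 (0.62) and Ltbp2 (0.54). The median of that slope, in log2 units per 10 points of GC, was 0.078 in saline, -0.086 at 2 weeks, 0.020 at 4 weeks, 0.0998 after 6 weeks of recovery and 0.104 after 10. The transcript used for Ltbp4 has 62.2% GC, higher than or equal to 98.5% of the genes tested. With each mouse corrected for GC content and length, Ltbp4 was at -1.08 at 2 weeks (adjusted p = 7.8e-10), and Ltbp2 became a DEG at 2 weeks (0.63, adjusted p = 0.0089). Tgfbr1 was then at 0.16 at 4 weeks (adjusted p = 0.0041), against 0.25 uncorrected, and the 6-week recovery group stood at -0.15 against the 4-week group (adjusted p = 0.030), where the uncorrected value was -0.34. Its change from 2 to 4 weeks of bleomycin became 0.20 (adjusted p = 0.0034), against 0.18 (adjusted p = 0.21).

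The genes lie apart in the genome (GENCODE gene bounds, GRCm38). Tgfb1 lies at chr7:25687002-25705077 on the plus strand, Tgfb2 at chr1:186622792-186705989 on the minus strand and Tgfb3 at chr12:86056745-86079041 on the minus strand. Tgfbr1 lies at chr4:47353222-47414931 (plus), Tgfbr2 at chr9:116084293-116175360 (minus) and Tgfbr3 at chr5:107106570-107289629 (minus). Ltbp1 lies at chr17:75005568-75392512 (plus), Ltbp2 at chr12:84783212-84876532 (minus) and Ltbp4 at chr7:27305136-27337692 (minus). Their values are reads over exons of protein-coding genes. Exons of Tgfb2 (124 bases with Gm29491), Tgfb3 (257 with Gm48008 and 163 with Gm37804) and Tgfbr3 (297 with Gm43422) overlap those of other annotated genes, so part of their reads may be uncertain.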

How the data were processed

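The skin RNA of 44 mice in 5 groups was sequenced as paired reads from a stranded TruSeq mRNA kit. The submitters' processing notes name STAR 2.4.0, DESeq2 1.12.3 and the build mm10; how reads were assigned to genes, and with which annotation and strand option, is not given in the sources used here. The authors deposited a signal per gene and mouse, the read count divided by a DESeq2 size factor. Dividing by the step between values gave whole reads (within 0.01 of a read) for 100% of values, and on these reads edgeR called 3136 DEG at 4 weeks against 3053 with limma. Symbols matched 42929 of 43411 identifiers (98.9%), and 14600 genes had no read.

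Differential expression was tested with limma 3.58.1 (mean-variance trend, R 4.3.3) with a pseudocount of 1 on the log2 scale and a minimum mean of 3 normalized counts per gene, all groups in one fit without a replicate block; p-values were adjusted by Benjamini-Hochberg over all genes tested. The fold change understates that of low genes. Replicates are numbered samples that the labels describe as skin of mice; sequencing batches are not named in the sources used here, and p-values measure the spread between these samples. edgeR 4.0.16 and DESeq2 1.42.0 on recovered reads, a pseudocount of 0.1, other filters (none, or 10 normalized counts or more in 6 mice), quantile and trimmed-mean scaling, 2-group fits, the replicate block, and fits without saline mouse 1 and 2-week bleomycin mouse 2 were alternatives; leaving out each of these mice alone and the GC correction were chosen later, after seeing the data. The limma, edgeR and DESeq2 fits were tested on simulated counts. These were drawn independently for each gene and mouse, without the GC slopes and outlying mice of the data, and their outcome is not reported here. The genes described and the pathway and marker lists were chosen with earlier results of these data known. Named genes were all members, for each pathway list the 2 largest and 2 smallest changes among DEG at 4 weeks, DEG of a recovery group, and for each member the 2 genes most like it. The values of 1 gene named by this rule are not reported here.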

Additional observations from a re-analysis of the deposited data

Results flagged for a closer look

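In 45 sets of values (9 genes in 5 groups), 5 held a mouse farther from the others than Dixon's 95% critical value, which chance gives in about 1 in 20 sets. Saline mouse 1 was such a low value for Tgfb2 (109 normalized counts), Tgfbr2 (1462), Tgfbr3 (733) and Ltbp2 (136), and 2-week bleomycin mouse 2 for Tgfbr1 (309.5). Saline mouse 1 also had the highest sum of hair follicle markers of all mice, 220042.

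Of 27 direct comparisons between consecutive groups over the 9 genes, 7 had an adjusted p below 0.05, so the effect against saline differed between those groups. From 2 to 4 weeks of bleomycin these were Ltbp2 (log2 0.92) and Ltbp4 (0.58). Between the 4-week bleomycin and 6-week recovery groups they were Tgfb3 (0.43), Tgfbr1 (-0.34), Tgfbr2 (0.52), Ltbp2 (-0.94) and Ltbp4 (0.77). With the GC correction the change of Tgfbr1 was -0.15. Of all genes tested, 5.61% passed between 2 and 4 weeks of bleomycin, 25.0% between 4 weeks and 6 weeks of recovery, and 0.0939% between the recovery groups. Tgfb3 in the latter bleomycin comparison and Ltbp4 between 2 and 4 weeks each passed in 10 of 13 alternative fits.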

How the results depend on the processing

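The DEG calls of Ltbp4 at 2 weeks (log2 -1.31 to -1.08) and at 4 weeks (-0.74 to -0.65), of Ltbp2 at 4 weeks (1.19 to 1.44), and of Tgfb3 at 6 weeks of recovery (0.69 to 0.83) held in all 13 alternatives, and that of Tgfbr2 at 2 weeks (-0.76 to -0.58) in 12. With the adjusted p alone in place of the DEG rule, the genes called among the 9 were 4 at 4 weeks, 2 between 4 and 2 weeks, and 5 between 6 weeks of recovery and 4 weeks; among the pathway genes they were 24, 29, 14 and 7 against saline in time order and 18 between 6 weeks of recovery and 4 weeks. These pathway counts are out of 56 genes. By the same rule 35.6%, 36.6%, 9.08% and 5.83% of all genes tested passed against saline, in the same order. The 6-week recovery group set against the end of bleomycin gave 25.0%. Quantile normalization gave 2 of the 9 genes between 4 and 2 weeks. Leaving out saline mouse 1 gave 3 of the 9 at 2 weeks, and leaving out 2-week mouse 2 gave 1. Pathway genes at 10 weeks of recovery were 8 with DESeq2, with the GC correction and without 2-week mouse 2, against 4. Changes that turned sign were near 0 and passed no threshold before or after. Without saline mouse 1, alone or with 2-week mouse 2, they were Tgfb2 (-0.019) and Tgfbr3 (-0.070) at 6 weeks and Tgfbr2 (-0.098) at 10 weeks of recovery, against 0.11, 0.021 and 0.031 without 2-week mouse 2 alone. Tgfb3 at 2 weeks was at 0.040 without 2-week mouse 2 and at -0.10 without saline mouse 1. With edgeR and DESeq2 they were Tgfbr2 at 10 weeks of recovery (-0.018 and -0.013) and Ltbp4 between the recovery groups (0.054 and 0.066), and with DESeq2 Tgfbr3 at 6 weeks (-0.0056). With the GC correction they were Tgfbr1 at 2 weeks (-0.047), at 6 weeks of recovery (0.010) and between the recovery groups (-0.010), and Ltbp4 at 6 and 10 weeks (-0.0059 and -0.037). Causes were not tested. Tgfbr2 at 4 weeks lay above 0.05 in 5 of 13 alternatives (adjusted p up to 0.11).

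Equal replicate numbers did not pair the mice: same-numbered mice of different groups had a median r of -0.0022 over 78 pairs (-0.69 to 0.38), others -0.0042, and 4 of 44 mice correlated best with their own number. This check cannot show runs of neighbouring numbers within a group. At 4 weeks, mice 1, 2 and 3 had GC slopes of -0.19, -0.23 and -0.21, and the others -0.030 to 0.078. They also had the lowest Ltbp4 counts of that group (1275, 1738 and 2040). Whether such runs bear on the group differences was not tested. With the replicate block, 14 pathway genes were called at 6 weeks of recovery against 9, and Tgfb2 at 10 weeks (0.0034) and Ltbp1 at 6 weeks of recovery (0.015) turned sign. The number of the 9 genes that were DEG was the same in each comparison. By the adjusted p alone, the block gave Tgfb2 at 2 weeks (-0.31, 0.036 against 0.085) and Tgfbr3 between 6 weeks of recovery and 4 weeks (0.38, 0.0497 against 0.13), and lost Tgfbr2 at 4 weeks (0.051 against 0.048). With 6 mice, the 6-week group limits precision: the 95% interval of Tgfb1 against saline ran from -0.32 to 0.53.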
